A study of Mus musculus with 2239 samples.

Results

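The genes described are the translation factors of mouse regulatory T cells (Tregs): every gene whose symbol starts with Eif or Eef, apart from Eif2ak2 and Eif2s3y, plus Tpt1. Of 63 such rows in the count table, 60 had any unique molecular identifier (UMI, 1 counted mRNA molecule) in the cells kept, out of 12952 genes with any UMI. Eif4e1b, Eif4ebp3 and Eef1a2 had none. The cells were from male B6 animals aged 7 months with a Foxp3 reporter allele, and the sort took DAPI- TCRb+ CD4+ GFP+ cells. All 2239 came from 1 inDrops droplet library. Its tissue label is spleen, but colon appears beside spleen in the sample type. A minimum of 500 UMIs per cell retained 2055 cells, with a median of 974 UMIs and a highest total of 4329, and set aside 184. With 1 library there is no replicate and no test: intervals in brackets are 95% intervals that cover counting error only.

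Protein synthesis starts when initiation factors bring the small ribosomal subunit, the initiator tRNA and the mRNA together. The eIF4 group reads the cap and unwinds the mRNA, the large eIF3 complex holds the small subunit, eIF2 delivers the initiator tRNA, and eIF1 family members police the start codon. Elongation factors then run the cycle: eEF1A brings each aminoacyl-tRNA, the eEF1B subunits reload eEF1A with GTP, and eEF2 moves the ribosome along. Tpt1 encodes TCTP, an abundant protein that binds eEF1A. The mRNAs of ribosomal proteins and of many elongation factors are known to begin with a run of pyrimidines, the 5′ terminal oligopyrimidine (TOP) motif, through which mTOR signalling controls their translation.

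Annotated starts are shown for members whose level moved with the ribosomal share, described next, and for some that moved the other way. Each line holds 20 bases before and 20 bases from the first transcribed base in RefSeq (GRCm38.p6), 5′ to 3′ on the gene's strand. Capitals mark a C followed by at least 4 further letters that are each C or T. The lines are in the order of highest to lowest ratio within each direction, and the last 2 genes were lower in ribosome-rich cells.
Eef1b2 (chr1:63176811-63176850, plus strand): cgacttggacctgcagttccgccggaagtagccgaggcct
Eef1a1 (chr9:78481705-78481744, minus strand): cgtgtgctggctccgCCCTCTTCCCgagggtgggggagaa
Tpt1 (chr14:75845236-75845275, plus strand): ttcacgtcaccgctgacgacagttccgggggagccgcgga
Eef2 (chr10:81176611-81176650, plus strand): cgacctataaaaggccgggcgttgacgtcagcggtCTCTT
Eif3f (chr7:108934395-108934434, plus strand): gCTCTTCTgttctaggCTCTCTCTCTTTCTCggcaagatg
Eif3k (chr7:28981869-28981908, minus strand): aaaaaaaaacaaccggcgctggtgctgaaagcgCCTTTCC
Eif4b (chr15:102073753-102073792, plus strand): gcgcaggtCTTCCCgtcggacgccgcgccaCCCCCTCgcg
Eif4e (chr3:138526171-138526210, plus strand, the first of 2 annotated starts): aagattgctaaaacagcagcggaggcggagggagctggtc
Eif4e (chr3:138527248-138527287, plus strand, the other annotated start): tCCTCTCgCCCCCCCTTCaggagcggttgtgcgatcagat
Eif4g1 (chr16:20672707-20672746, plus strand): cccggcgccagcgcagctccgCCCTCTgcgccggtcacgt
Such a run stood in the window of 50.3% of 16921 genes of the table with an annotated start, of 51 of 66 ribosomal protein genes (77.3%) and of 22 of the 49 members with an entry, a gene with several starts being counted where any of them had one. A match in this window describes the letters and not a working motif. A missing run likewise describes the annotated start and its window, and does not show that the mRNA lacks the motif.

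The family made 92067 UMIs, or 4.27% of the 2156277 UMIs in the kept cells. Levels compared between genes are CPM, counted UMIs per 1000000 UMIs, since each UMI stands for 1 mRNA 3′ end whatever its length. Tpt1 (13961, interval 13803 to 14119) and Eef1a1 (13549, interval 13394 to 13705) were far above all other members. The other elongation genes were Eef1b2, the exchange subunit (2090), Eef2, the translocase (1672), Eef1g, a structural eEF1B subunit (1279), and Eef1d, a second exchange subunit (232). The 5 core elongation genes summed to 18823 CPM, against 8465 for the 37 core initiation genes.

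Among initiation genes Eif1, which polices the start codon, stood at 1588 CPM. Eif3f (725), Eif4g2 (715) and Eif3h (690) followed, and their intervals overlap. Eif3k (470), Eif4a1, the cap-complex helicase (399), Eif4b, its helper (363), and Eif3e (336) came next. Eif2s2, the eIF2 beta subunit (249), Eif3m (248), Eif4a2, a second helicase (220), Eif5, the eIF2 GTPase activator (212), Eif3a (199), Eif3i (173), Eif4h (169), Eif3c (150), Eif3d (145), Eif4g1, the scaffold (140), and Eif5b, the subunit-joining GTPase (128), formed a middle band. Neighbouring genes within this band mostly did not differ beyond their counting intervals.

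Below them lay Eif3g (102), Eif4g3 (97.4), Eif3b (91.4), Eif3j1 (90.9), Eif1b and Eif2s3x (86.3 each), Eif1ax (85.3), Eif3l (82.1), Eif4e, the cap-binding protein (78.4), Eif2s1, the eIF2 alpha subunit (74.2), Eif4e2 (69.1) and Eif2b2, of the eIF2 exchange factor (65.4). Of the cap-binding complex, the helicase genes were thus measured well above the scaffold Eif4g1, and the scaffold above Eif4e. Of the factors with an Eif symbol outside core initiation, Eif5a, which helps ribosomes through difficult peptide bonds, led with 753 CPM. Eif4a3, of the exon junction complex (144), Eif1ad (75.1), Eif6, which keeps ribosomal subunits apart (68.2), and Eif2a (55.2) were far below it. Eef2kmt, the eEF2 lysine methyltransferase, stood at 69.1. The 2 regulators with at least 100 UMIs were Eif4enif1, which carries eIF4E into the nucleus (56.1), and Eif4ebp2, an eIF4E-binding repressor (50.1). Counts of Eef1a1, Tpt1, Eif1, Eif1b, Eif4a1, Eif4a2, Eif1ax and Eif3j1 are uncertain where reads could have been split with near-identical copies or pseudogenes.

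**Figure D1:**
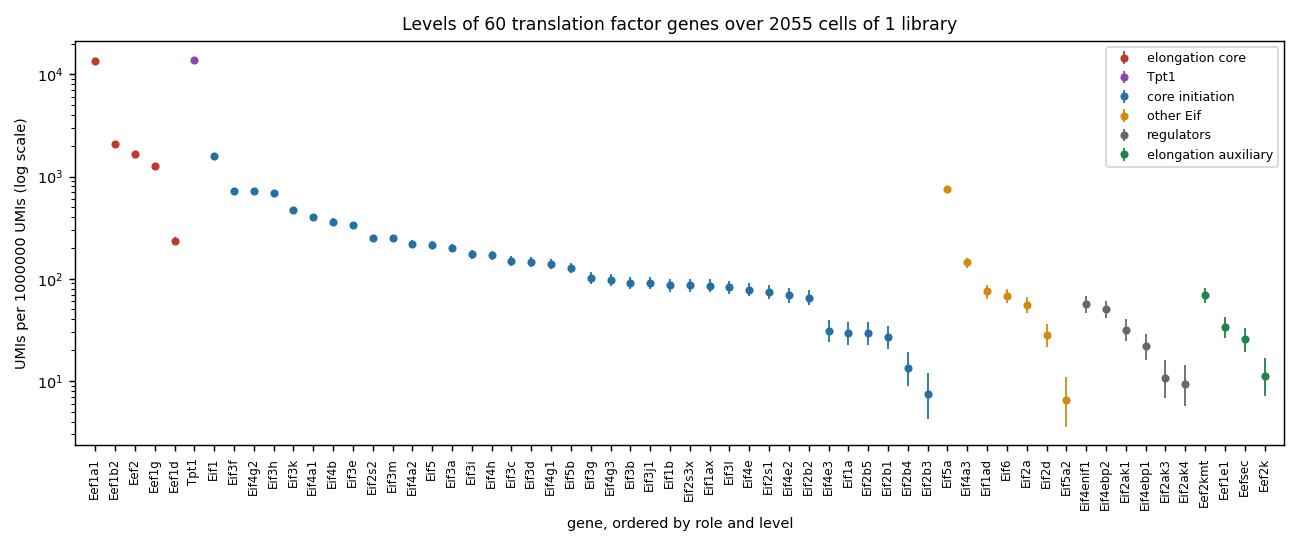
Level of each of the 60 members over 2055 cells, in CPM (UMIs per 1000000 UMIs) on a log axis, ordered by role and level; bars are 95% Poisson intervals. Tpt1 and Eef1a1 sit at 13961 and 13549 and the remaining members between 6.49 (Eif5a2) and 2090 (Eef1b2).

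The sort was checked against markers. All 6 Treg markers and all 6 T cell markers were present, summing to 2599 and 2444 CPM. B cell markers reached 1300, myeloid markers 643 and plasma cell markers 324 CPM over all kept cells, although the gate should remove these cells. Ribosomal protein mRNA made 36.2% of all UMIs, between 2.65% and 54.9% in single cells.

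The first comparison asked how elongation and initiation factor mRNA stood in cells that hold much or little ribosomal protein mRNA. Cells were ordered by ribosomal share and divided into 5 quintiles of 411 cells; the lowest held 2.65% to 30.1% and the highest 41.9% to 54.9% ribosomal UMIs. Levels in all comparisons of cell classes are nCPM, UMIs per 1000000 UMIs that are not from ribosomal protein genes, so that the sorting variable does not enter the total. Elongation factor mRNA was 19085, 25034, 30236, 34042 and 41045 from the lowest to the highest quintile. The counting intervals of neighbouring quintiles did not overlap, and the highest quintile stood 2.15-fold above the lowest (2.08 to 2.22). Tpt1 followed with 14494, 19781, 23068, 24814 and 28510, a ratio of 1.97 (1.89 to 2.04).

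Core initiation factors moved much less: 11626, 13075, 13404, 13850 and 14637, a ratio of 1.26 (1.20 to 1.32). On the scale of all UMIs this small difference turned round, to 0.922 (0.880 to 0.966), while elongation (1.57) and Tpt1 (1.44) stayed higher. The change of total shifts every log2 ratio by 0.45. The number of elongation UMIs per initiation UMI needs no total, and it was 1.64, 1.91, 2.26, 2.46 and 2.80 over the quintiles, 1.71-fold higher in the highest than in the lowest (1.61 to 1.81). Without Eef1a1 the ratio of these quotients was 1.79 (1.66 to 1.93), so the most abundant elongation gene did not carry it alone.

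**Figure D2:**
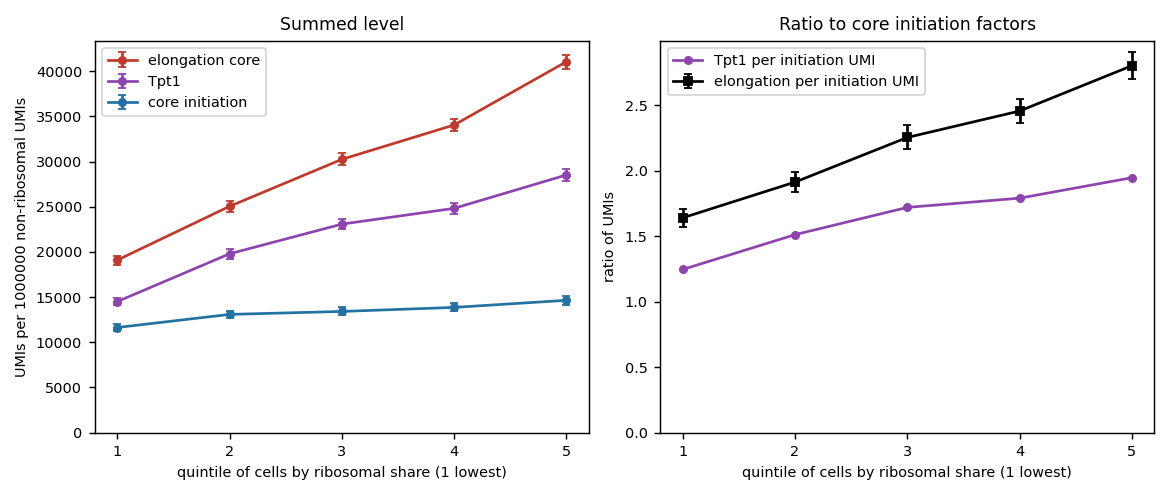
Left, summed levels of 5 elongation genes, Tpt1 and 37 core initiation genes in nCPM over 5 groups of 411 cells ordered by ribosomal share; right, elongation and Tpt1 UMIs per initiation UMI. Bars are 95% counting intervals (none drawn for Tpt1 at right); elongation climbs from 19085 to 41045 and initiation from 11626 to 14637.

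Over single cells the spread was wide. Elongation factor levels ran from 0 through a median of 18481 to 41451 in the lowest quintile, and from 12739 through 40219 to 71608 in the highest. The middle ranges of the quintiles did not overlap for elongation, since the upper quartile of the lowest was 23105 and the lower quartile of the highest 34164. For core initiation they did, with 8448 to 14047 against 11253 to 17573. Across the 2055 cells Spearman's rho with the ribosomal share was 0.70 for elongation, 0.53 for Tpt1 and 0.22 for core initiation. These correlations describe cells of 1 library whose depth also varies: rho between depth and ribosomal share was 0.28.

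Of 51 members with at least 20 UMIs over both quintiles, 16 were at least 1.5-fold higher in the highest, against 10.3% of all 5330 non-ribosomal genes measured the same way. Another 5 (Eif4e, Eif4ebp1, Eif4enif1, Eif4g1 and Eif6) were at least 1.5-fold lower, against 18.9% of all genes. The median log2 ratio was 0.24 over the members and -0.10 over all genes. Per all UMIs 5 members were higher and 15 lower, so the split depends on the total. The share of all genes past 1.5-fold was not counted on that scale, so these counts have no background beside them. All 5 elongation genes were among the 16 higher per non-ribosomal UMI: Eef1b2 at 2.69-fold (2.43 to 2.98), Eef1g at 2.23 (1.96 to 2.53), Eef1a1 at 2.11 (2.03 to 2.19), Eef2 at 1.93 (1.73 to 2.14) and Eef1d at 1.67 (1.24 to 2.27). The pooled levels of Eef1b2 were 1807, 2684, 3304, 3989 and 4865 over the quintiles. Those of Eef2 were 1863, 2126, 2489, 3187 and 3589. Neither gene fell back at any step.

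The initiation genes differed by complex and by subunit. In eIF3, 6 of 13 subunit genes were at least 1.5-fold higher and none at least 1.5-fold lower: Eif3e (2.45, interval 1.91 to 3.17), Eif3h (1.92), Eif3f (1.84), Eif3k (1.68), Eif3m (1.66) and Eif3i (1.66). Eif3e was 312, 494, 529, 571 and 763 nCPM over the quintiles. Eif3a, Eif3c and Eif3l were not among the 6 higher ones, at 0.81 (0.58 to 1.12), 0.76 (0.54 to 1.08) and 0.74 (0.41 to 1.30). Eif3b, Eif3d, Eif3g and Eif3j1 lay between 1.07 and 1.31. As a sum, eIF3 mRNA was 1.57-fold higher (1.46 to 1.69). Per all UMIs the balance of the subunits turned, with 1 of the 13 higher and 3 lower, and the sum was at 1.15 (1.07 to 1.24). No share of all genes was counted on that scale.

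**Figure D3:**
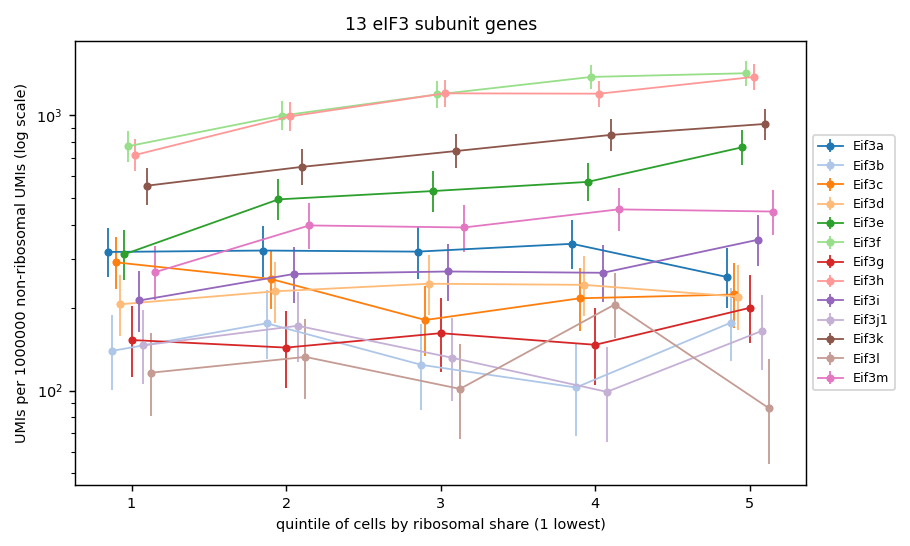
Levels of the 13 eIF3 subunit genes, in nCPM on a log axis, over 5 groups of 411 cells ordered by ribosomal share, with 95% Poisson intervals and a small sideways offset per gene. Eif3e, Eif3f and Eif3h climb by 1.84-fold to 2.45-fold while Eif3a, Eif3c and Eif3l end below where they start.

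Among initiation genes with an Eif4 symbol the ratio was 1.56 for Eif4b (1.23 to 1.98), 1.25 for Eif4a1 (1.02 to 1.54), 1.23 for Eif4g2 (1.05 to 1.44) and 1.19 for Eif4a2 (0.88 to 1.62). Eif4g1 went the other way at 0.59 (0.39 to 0.88), from 76 UMIs in the lowest quintile to 38 in the highest. Eif4e at 0.65 (0.39 to 1.08) and Eif4g3 at 0.68 (0.42 to 1.07) had intervals that include 1. Eif1 was level at 1.03 (0.93 to 1.15), with 2443, 2448, 2512, 2524 and 2524 nCPM over the quintiles. Eif2s3x, the eIF2 gamma subunit, was at 1.54 (0.95 to 2.50). Eif5a did not follow elongation: it was at 0.90 (0.76 to 1.06), and Eif6 was at 0.56 (0.29 to 1.02). Of the eIF4E-binding repressors, Eif4ebp1 had 20 UMIs in the lowest and 5 in the highest quintile, a ratio of 0.30 (0.087 to 0.81), whereas Eif4ebp2 had 15 and 25, a ratio of 1.97 (0.998 to 4.01). Eif4ebp1, Eif4ebp2, Eif4enif1, Eif4b, Eif4g2, Eif1, Eif2s3x and the eIF3 genes other than Eif3e, Eif3c and Eif3l were named after their values were seen.

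The sequences printed above can be set beside this order. Of 9 members with at least 50 UMIs and a 1.5-fold higher level that have an annotated start, 7 had a pyrimidine run in the window; of 26 members below that ratio, 7 had one. Eef1b2 and Tpt1 were higher with no run in these letters, and Eif4g1, and Eif4e at 1 of its 2 starts, were lower with one. Neither a run nor its absence in this window shows whether an mRNA begins with a TOP motif. Eef1g, Eef1d, Eif3e, Eif3h and Eif3i had no entry.

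Genes of the pathway outside the family, from lists of known function, gave this background. Of 82 measured ribosomal protein genes 80 were higher, which the ordering itself fixes. Of 4 genes for nascent-chain and ribosome-bound proteins 2 were higher and none lower: Gnb2l1, the ribosome-bound scaffold RACK1 (2.62, interval 2.45 to 2.81), and Naca (1.79, interval 1.61 to 1.998). Of 6 genes for poly(A) binding and TOP mRNA control 2 were higher and none lower: Pdcd4, an eIF4A inhibitor (1.83), and Pabpc1, the poly(A)-binding protein (1.62). Of 17 cytosolic aminoacyl-tRNA synthetase genes none was higher and 3 were lower, a share near the 18.9% of all genes. Of 8 mTOR and eIF2 signalling genes none was higher and 4 were lower, among them Atf4 (0.61, interval 0.41 to 0.92) and Ppp1r15b (0.57, interval 0.33 to 0.95). None of 4 termination and recycling genes passed 1.5-fold. These counts depend on the total: per all UMIs 10 of the 17 synthetase genes and 2 of the 4 termination genes were lower, 1 nascent-chain gene and no gene for poly(A) binding and TOP mRNA control was higher, and 4 of the 8 signalling genes were again lower. Counts per all UMIs have no share of all genes beside them.

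Markers of other cells moved with the ribosomal share. B cell markers were at 3065 CPM in the lowest quintile and 247 in the highest, with Ebf1 at 0 there. Myeloid markers were at 2924 and 77.4, with 7 of 9, Lyz2 and Tyrobp included, at 0 in the highest. Plasma cell markers were at 1397 and 38.7, and cycling markers at 1539 and 688. Treg markers were also higher in the lowest quintile, at 3399 against 1962. Without the 62 cells of the lowest and 3 of the highest quintile that held at least 2 UMIs of B cell, myeloid or plasma markers (other than Cd74, Cst3 and Xbp1), elongation was still 2.08-fold higher and initiation 1.22-fold. Among the cells with at least 2 UMIs of cycling markers, elongation was 2.22-fold higher (79 against 98 cells). Depth moved too: elongation was 23901 in cells with 500 to 750 UMIs and 32801 in those with 1500 to 2500, but 26905 in the 30 cells above 2500, and the part of depth in the result was not tested.

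The second comparison took the cells with at least 3 UMIs of Mif and Ranbp1 together. Ranbp1 is a cofactor of nuclear transport and Mif a cytokine, and both are known as Myc-driven genes high in growing T cells. These were 22 cells against 2033, with a median of 2243 against 970 UMIs and 32.5% against 36.3% ribosomal UMIs. The gate counts UMIs and so selects deep cells; Mif and Ranbp1 were left out of the totals. Core initiation mRNA was higher, 17399 against 13166 nCPM, a ratio of 1.32 (1.22 to 1.43). Tpt1 was lower, 13789 against 22091, a ratio of 0.62 (0.57 to 0.68). Elongation was 26808 against 29577, a ratio of 0.91 (0.85 to 0.97), but 0.96 (0.89 to 1.02) per all UMIs. Elongation UMIs per initiation UMI were 1.54 in the gated cells and 2.25 in the others, a ratio of 0.69 (0.62 to 0.76).

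Single gated cells spread from 3797 through a median of 17712 to 22864 for core initiation, within the range of 0 to 37037 of the others, whose median was 12739. For Tpt1 the gated cells spread from 6351 through 13781 to 24634, and the median of the others was 22000. The groups overlap for every sum.

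**Figure D4:**
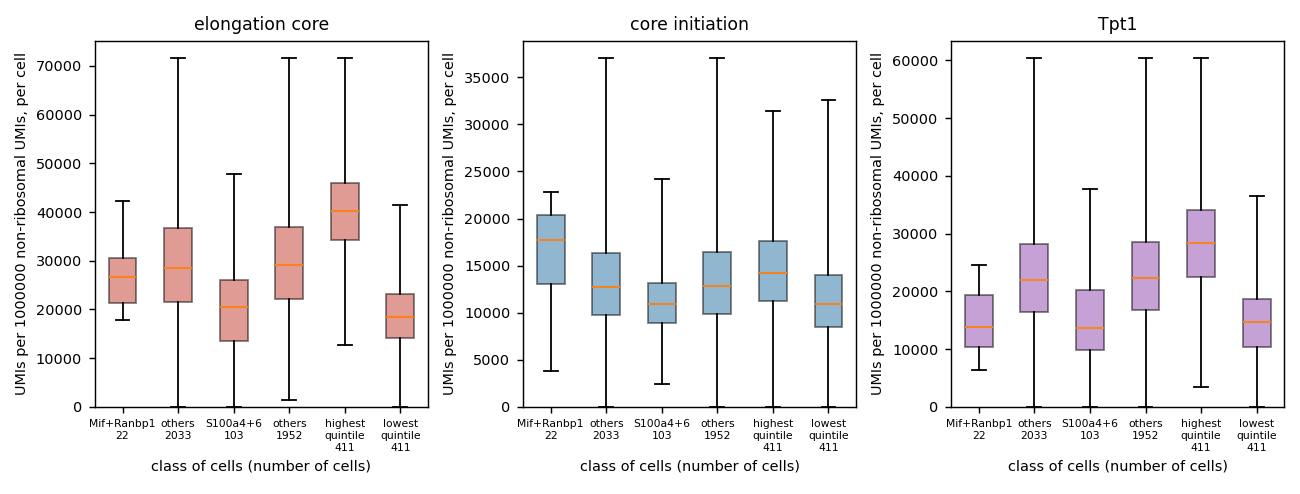
Level per cell, in nCPM, of elongation genes, core initiation genes and Tpt1 in each pair of cell classes. Boxes are quartiles with the median, whiskers the lowest and highest cell; initiation has its highest median in the 22 Mif and Ranbp1 cells (17712), and Tpt1 has medians of 13781 and 13678 in the gated classes.

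Among the members with at least 50 UMIs over both classes Eif5a had the highest ratio. It was at 4143 against 1106 nCPM (140 against 1484 UMIs), a ratio of 3.75 (3.13 to 4.46). Its UMIs per cell ran from 0 through a median of 5.5 to 18 in the gated cells and from 0 through 0 to 12 in the others. Next in order came Eif3j1 (3.29, interval 1.80 to 5.57), Eif2s1 (3.22, interval 1.63 to 5.79), Eefsec, the selenocysteine elongation factor (3.11 from 4 UMIs, interval 0.82 to 8.47), Eif2b1, an eIF2B subunit (2.94 from 4 UMIs, interval 0.77 to 7.97), and Eif3g (2.90, interval 1.60 to 4.90). The helicase Eif4a1 was 2.35-fold higher (1.72 to 3.14), with 1420 against 605 nCPM, and its paralog Eif4a2 stood at 1.38 (0.78 to 2.27).

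Elongation genes did not move as a block. Eef1g was 1.52-fold higher (1.24 to 1.86), but at 0.89 (0.38 to 1.75) without the cells with at least 2 cycling UMIs. With gate and levels thinned to 500 UMIs per cell and the gate lowered to 2 UMIs, its log2 ratio was -1.37. Eef1b2 was at 1.06 (0.87 to 1.27), Eef2 at 0.87 (0.68 to 1.09), Eef1d at 0.81 (0.39 to 1.4996) and Eef1a1 at 0.83 (0.77 to 0.90). Without Eef1a1 the elongation ratio was 1.10 (0.98 to 1.23), so the lower sum rests on that gene. At the low end stood Eif3f (0.54, interval 0.33 to 0.83), Tpt1, Eif4enif1 (0.67 from 2 UMIs) and Eif3h (0.71, interval 0.46 to 1.04). Eif4e2 and Eif4e3, both eIF4E relatives, had 0 UMIs in the gated cells against 149 and 67 in the others. A floor of 3 UMIs over the class puts Eif4e2 at 0.80 of the others and gives no value below 1 for Eif4e3. The upper limits of their exact intervals were 0.995 and 2.25. Eif3f and Eif3h were low here and high in ribosome-rich cells, while Eif3g, Eif3j1, Eif3a, Eif3d, Eif3b, Eif3l and Eif3i were each at least 2-fold higher here.

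Of 58 members with at least 20 UMIs, 28 were at least 1.5-fold higher, against 28.2% of all 7721 genes, and 2 (Eif3f and Tpt1) were at least 1.5-fold lower, against 17.4%. Of these 28, 6 rest on 1 to 4 UMIs in the gated cells. Among the 29 members with at least 5 UMIs expected in the gated cells, 14 were higher, against 22.2% of 1413 genes, and 2 lower, against 37.7%. Those 14 were Eef1g, Eif5a, Eif4a3 and 11 core initiation genes. The median log2 ratio was 0.49 over the 29 members and -0.23 over the 1413 genes. By group, eIF2 and eIF2B mRNA together was 2.22-fold higher (1.70 to 2.86) and eIF3 1.24-fold (1.08 to 1.42). The 10 core initiation genes with an Eif4 symbol, Eif4g2 among them, were together 1.44-fold higher (1.23 to 1.67). The eIF1 family was level at 0.98 (0.79 to 1.20). Of 19 aminoacyl-tRNA synthetase genes 17 were higher and 1 lower, with Eprs at 3.90 (1.96 to 7.07) and Kars at 3.83 (1.86 to 7.12). Among the higher ones, Dars, Farsa, Hars, Rars, Sars, Vars and Yars had intervals that include 1. The lower one, Aars, rests on 1 UMI (0.48, interval 0.012 to 2.74). Of 5 termination and recycling genes 4 were higher, Gspt1, the GTPase of release, at 2.77 (1.56 to 4.60). Abce1 (1.98, interval 0.94 to 3.73) and Hbs1l (1.63 from 3 UMIs, interval 0.33 to 4.96) had intervals that include 1. Of 83 ribosomal protein genes 3 were higher and 8 lower.

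Depth and cycling markers moved with this gate. Against only the 194 other cells with at least 1500 UMIs the ratios were 1.26 (1.16 to 1.38) for initiation, 0.84 (0.78 to 0.90) for elongation and 0.71 (0.65 to 0.78) for Tpt1. Without the 30 cells above 2500 UMIs, 10 of them gated, initiation was at 1.06 (0.91 to 1.23) and elongation at 0.99 (0.89 to 1.09), while Eif5a was still at 2.72 (1.90 to 3.76) and Tpt1 at 0.67 (0.58 to 0.78). Cycling markers stood at 1871 CPM in the gated cells and 920 in the others, with Mki67, Rrm2, Birc5, Ccnb2 and Cdk1 at 0 in the gated cells. Treg markers stood at 1512 CPM in the gated cells and 2625 in the others. Of the 22 cells 16 held at least 2 cycling UMIs. In the 6 without, initiation was at 1.003 (0.767 to 1.289) and Eif5a at 1.58 (0.68 to 3.12). Those 6 cells held only 117 of the 906 elongation UMIs of the 22, and the parts of depth and cycling were not tested apart. Among cells with at least 2 cycling UMIs (16 against 404) initiation was at 1.38 (1.26 to 1.51), Tpt1 at 0.64 (0.57 to 0.70) and Eif5a at 4.03 (3.28 to 4.93).

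Within quintiles of ribosomal share the elongation ratio of the gated cells changed sides. It was 1.30 (1.15 to 1.46) in the lowest quintile (7 cells), 1.002 (0.904 to 1.108) in the next (10 cells), and 1.11 and 1.14 in the following pair (2 cells each). Initiation was at 1.60 (1.38 to 1.84), 1.29 (1.14 to 1.46), 1.26 and 1.37 in the same quintiles, and Tpt1 at 0.81, 0.66, 0.65 and 0.89. The highest quintile held 1 gated cell, with elongation at 0.65 (0.38 to 1.03), initiation at 1.32 and Tpt1 at 0.62. The Tpt1 ratio was thus below 1 in each of the 5 quintiles and the initiation ratio above 1, but not always beyond counting error. Tpt1 intervals included 1 in the next to highest (0.68 to 1.14) and highest quintile (0.32 to 1.09). Initiation intervals included 1 in the middle (0.93 to 1.67) and highest quintile (0.70 to 2.26). The elongation ratio was below 1 only in the one with 1 gated cell. Its interval lay above 1 only in the lowest quintile. There the gated cells also had more ribosomal UMIs, 28.2% against 24.9%, so the classes were not matched for ribosomal share. In the next quintile the shares were 32.5% and 32.6%.

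The third comparison took the 103 cells with at least 2 UMIs of S100a4 and S100a6, calcium-binding proteins known from activated and migrating T cells, against 1952 others. Median depth was similar, 1057 against 969.5 UMIs, but the ribosomal share was 25.4% against 36.9%, and 77 of the 103 cells lay in the lowest ribosomal quintile. No cell passed both gates (0 cells). Elongation mRNA was 20514 against 30201 nCPM, a ratio of 0.68 (0.65 to 0.71), and 0.80 (0.76 to 0.83) per all UMIs. Tpt1 was 14263 against 22473, a ratio of 0.63 (0.60 to 0.67). Core initiation was 11234 against 13428, a ratio of 0.84 (0.79 to 0.89), but 0.98 (0.92 to 1.04) per all UMIs. Elongation UMIs per initiation UMI were 1.83 against 2.25, a ratio of 0.81 (0.75 to 0.88).

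Over single cells, elongation ran from 0 through a median of 20446 to 47896 in the gated class, and from 1437 through 29046 to 71608 in the others. The upper quartile of the gated cells, 26048, lay below the median of the others. The corresponding initiation medians were 10937 and 12868, and the ranges overlap throughout.

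Each of the 5 elongation genes was lower with an interval below 1: Eef1b2 at 0.59 (0.51 to 0.68), Eef1d at 0.60 (0.37 to 0.92), Eef1g at 0.63 (0.52 to 0.75), Eef1a1 at 0.68 (0.65 to 0.72) and Eef2 at 0.80 (0.69 to 0.92). Per all UMIs none of the 5 was 1.5-fold lower, and the log2 ratios of Eef2 (-0.09, interval -0.30 to 0.11) and Eef1d (-0.50, interval -1.19 to 0.11) had intervals that include 0. Eif5a, at 3.75 in the Mif and Ranbp1 cells, was here at 0.49 (0.37 to 0.64), with 604 against 1225 nCPM. Among initiation genes Eif3e was at 0.47 (0.30 to 0.70), Eif3j1 at 0.48 (0.19 to 1.02), Eif1ax at 0.52 (0.20 to 1.09), Eif4a1 at 0.72 (0.52 to 0.97) and Eif4a2 at 0.73 (0.46 to 1.09). Eef1e1, a scaffold protein of the tRNA synthetase complex, and Eefsec had 1 UMI each in the gated cells, with ratios of 0.18 (0.0045 to 1.04) and 0.24 (0.0060 to 1.41).

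At the high end was Eif4enif1 at 1.85 (1.0 to 3.19, from 15 UMIs), followed by Eif2a at 1.47 (0.73 to 2.67), Eif4e2 at 1.46 (0.80 to 2.50), Eif2d, a noncanonical initiation factor, at 1.45 (0.51 to 3.37), Eif4h at 1.21 (0.81 to 1.76) and Eif3c at 1.14 (0.74 to 1.71). Eif4ebp1, named after its value was seen, was at 2.68 (1.08 to 5.82) from 8 UMIs. It was also at 4.73 (1.46 to 11.9) from 5 UMIs in the Mif and Ranbp1 cells. With gate and levels thinned to 500 UMIs per cell and the gate lowered to 1 UMI, its log2 ratio in the S100 comparison was -0.045 (-5.45 to 2.67). Of 58 members 2 (Eif4ebp1 and Eif4enif1) were at least 1.5-fold higher, against 17.1% of 7721 genes, and 15 at least 1.5-fold lower, against 25.4%. The share of lower members was thus near that of all genes. With at least 5 UMIs expected in the gated cells, 1 of 46 was higher, against 12.2% of 4129 genes, and 13 lower, against 23.8%. Per all UMIs 5 members were higher and 7 lower, with no share of all genes counted on that scale.

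**Figure D5:**
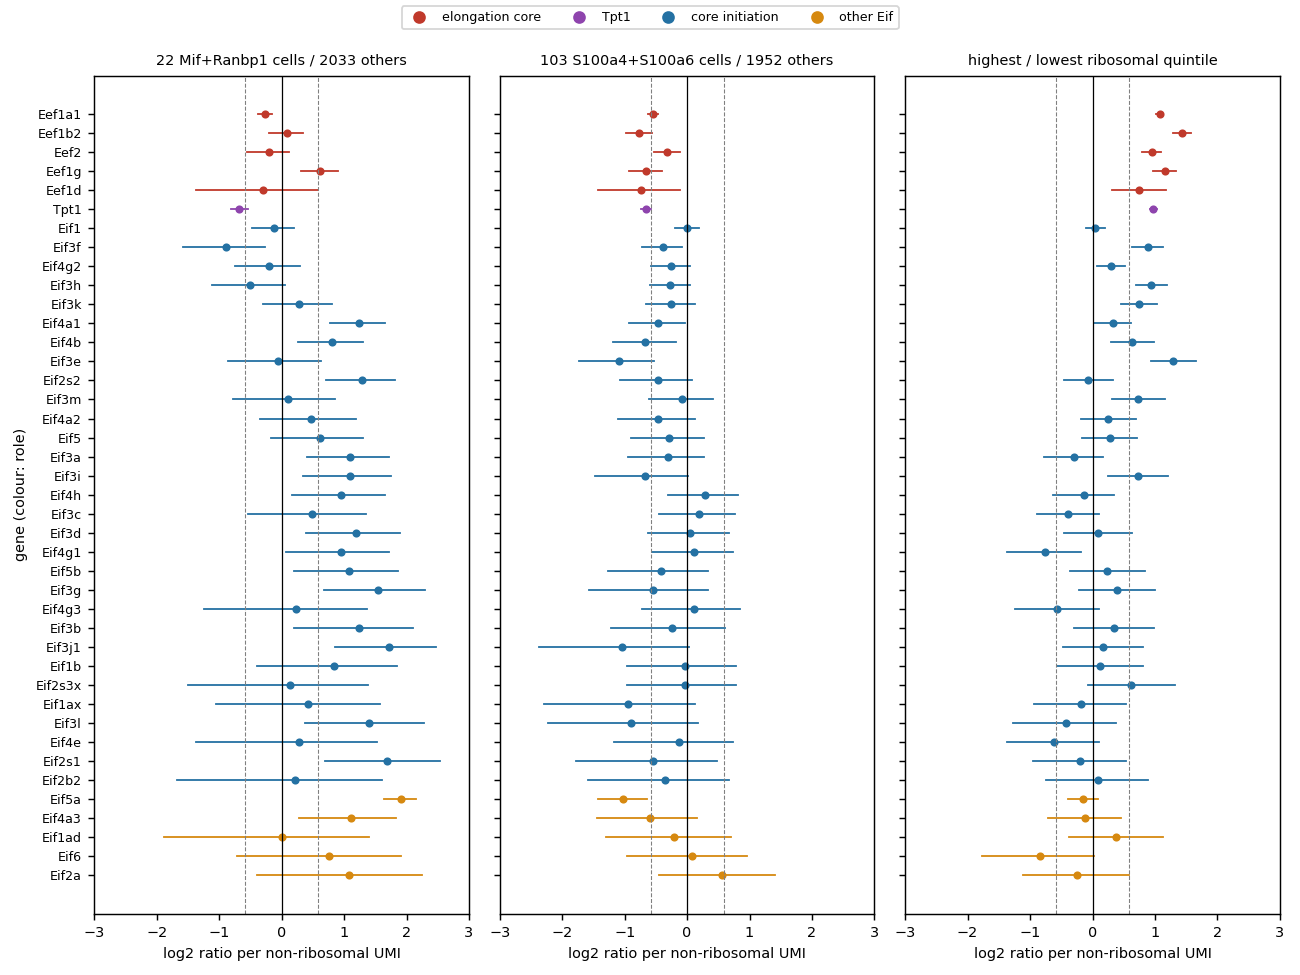
Log2 ratio of level per non-ribosomal UMI for the 41 members with at least 50 UMIs and no group at 0 in all 3 comparisons, with 95% counting intervals; dashed lines mark 1.5-fold either way. Elongation genes (red) lie right of 0 in the ribosomal comparison and left of 0 in the S100 comparison, and Eif5a lies at 1.90, -1.02 and -0.15.

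Markers of other cells differed in the S100 cells. Myeloid markers stood at 5686 CPM against 315 and B cell markers at 2676 against 1211, with a median of 0 per cell for both. Plasma cell markers went the other way, at 114 against 337, and natural killer and CD8 T cell markers were at 167 against 151. Cycling markers stood at 2244 against 857 and Treg markers at 3002 against 2573. Without the cells with at least 2 UMIs of B cell, myeloid or plasma markers, 84 against 1851 cells remained, and elongation was at 0.71 (0.68 to 0.75), Tpt1 at 0.66, initiation at 0.85 (0.79 to 0.91) and Eif5a at 0.48 (0.35 to 0.65). Within the lowest ribosomal quintile (77 against 334 cells) elongation was at 0.89 (0.84 to 0.95), initiation at 0.88 (0.81 to 0.95), Tpt1 at 0.85 (0.79 to 0.92), and the 7 Eif genes outside core initiation, of whose 2437 UMIs in all kept cells Eif5a had 1624, at 0.49 (0.38 to 0.63). The log2 ratio of the quotients of elongation to initiation was 0.02 there, with an interval of -0.12 to 0.17. Inside that quintile the ribosomal share still differed, 21.7% in the gated cells against 26.1% in the others. The classes were thus not matched for it. In the next quintiles, with 11, 7 and 8 gated cells, elongation was at 0.97, 0.98 and 1.17 and initiation at 0.94, 0.99 and 1.12. Tpt1 was at 0.80 (0.67 to 0.94), 0.80 (0.65 to 0.97) and 0.95 (0.81 to 1.10) there.

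Of the pathway lists in this comparison, 67 of 83 ribosomal protein genes were lower and none higher, with a median log2 ratio of -0.80; per all UMIs 31 were lower and 1 higher. Of 7 genes for poly(A) binding and TOP mRNA control 4 were lower, and Pabpc1 was at 0.70 (0.60 to 0.82). Of 4 nascent-chain genes Gnb2l1 was lower, at 0.61 (0.55 to 0.67), and Serbp1, a ribosome-binding protein, was at 0.81 (0.66 to 0.98) here but at 2.61 (2.13 to 3.15) in the Mif and Ranbp1 cells. Of 19 synthetase genes 5 were lower and none higher, a share near the 25.4% of all genes. Per all UMIs 1 of the 7 poly(A) and TOP control genes was lower, none of the 4 nascent-chain genes was, and of the synthetase genes 2 were lower and 1 higher. On that scale no share of all genes was counted.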

How the data were processed

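The authors deposited 1 table of raw UMI counts, 23725 genes by 2239 cells, with column names that are the sample titles; single cells were encapsulated by inDrops and sequenced from oligo-dT-primed cDNA, per the labels' protocols. TopHat2, SAMtools and the mm10 build are named per the submitters' processing notes; settings and the gene annotation are not given in the sources used here. Cells are not replicates and all belong to 1 library, so no test was run.

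Kept cells had at least 500 UMIs and 2156277 UMIs in all. Counts were summed over the cells of a class. A level is UMIs per 1000000 UMIs outside 88 ribosomal protein genes and the gate genes, unless all UMIs are named. Intervals are 95%: exact Poisson for levels, exact conditional (Clopper-Pearson) for ratios and quotients, and normal on the log scale for a ratio of quotients. Droplet counts also cover free RNA, so single-cell values are not free of it. A class with 0 UMIs was given a floor of 3 UMIs over the class, and such a ratio was counted only in the direction of the 0. Members needed 20 UMIs over both classes to be counted at 1.5-fold. Shares of all genes past 1.5-fold were counted per non-ribosomal UMI only, so counts per all UMIs have no such background. Fewer cells of a kind and less RNA per cell cannot be told apart in summed counts. Doublets were kept.

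Named genes were every member with at least 100 UMIs for levels, and, in each comparison, Eef1a1, Eef1b2, Eef1d, Eef1g, Eef2, Tpt1, Eif5a, Eif4a1 and Eif4a2 with the 6 highest and the 6 lowest of those with at least 50 UMIs; further names were chosen after their values were seen, among them all genes outside the family. The members, gates and lists were chosen with earlier results of these data known. Starts came from RefSeq (GRCm38.p6); 49 of 60 members matched. The ratio step was tested on simulated counts. Python 3.11.15, numpy 2.4.6, pandas 2.3.3 and scipy 1.17.1 were used.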

Additional observations from a re-analysis of the deposited data

Results flagged for a closer look

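In the 184 cells set aside for having under 500 UMIs, elongation genes stood at 17741 CPM (UMIs per 1000000 UMIs), core initiation genes at 8361 and Tpt1 at 14020, so these data outside the comparisons also held the family. Eif2ak2, the interferon-induced eIF2 kinase, stood at 39.0 CPM in the kept cells and Eif2s3y, the Y-linked eIF2 gamma gene, at 60.8; both are translation factor genes that the choice of members left out.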

How the results depend on the processing

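All 15 main results, log2 ratios of the sums and counts of members past 1.5-fold, were recomputed, each in 12 to 17 of 25 settings, 225 values in all; 155 stayed within the counting interval (for counts, within 1.5 times), 66 moved further and 4 changed sign. Of 659 values for 18 single members, 6 changed sign, counted only where the main ratio was at least 1.5-fold either way. Smaller main ratios also crossed 0 without being counted, such as Eif3e in the Mif and Ranbp1 comparison (-0.32 to 1.55 over the settings). No replicate exists, and no paired analysis was possible because all cells form 1 group. The cause of these changes was not tested.

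With all UMIs as the total, initiation over the quintiles was -0.12 and elongation 0.66, with 5 members higher and 15 lower; in the S100 comparison elongation was -0.33 and initiation -0.03 (-0.0256), with 5 higher and 7 lower. With at least 1000 UMIs per cell, elongation was -0.24 in the Mif and Ranbp1 comparison and 1.05 over the quintiles, where initiation was 0.23 and 10 members were higher; 4 were higher in the S100 comparison. Without cells with at least 2 UMIs of B cell, myeloid or plasma markers, 4 members were higher in the S100 comparison and elongation over the quintiles was 1.02 (1.025); without those with at least 1, added after the data were seen, the values were 4 and 1.02 (1.017).

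Without cells with at least 2 cycling UMIs, the Mif and Ranbp1 comparison gave 0.0043 for initiation, -0.23 for elongation against initiation, 6 members lower and -0.17 for Eef1g, and the S100 comparison -0.48 for elongation and 4 members higher. Without cells above 2500 UMIs, the Mif and Ranbp1 comparison gave -0.019 for elongation, 0.084 for initiation, -0.10 for elongation against initiation and 7 members lower. With levels thinned to 500 UMIs per cell, Eif4b was -0.44 in the Mif and Ranbp1 cells, and the S100 comparison gave -0.65 for elongation, -0.41 for elongation against initiation and 6 members higher. With gate and levels both thinned, the gates were also lowered, to 2 UMIs of Mif and Ranbp1 and 1 UMI of S100a4 and S100a6. The Mif and Ranbp1 comparison then gave 0.19 for initiation, -0.35 for elongation against initiation, 14 members higher and 5 lower. Eef1g was -1.37 there, Eif4b -0.59 and Eif2s2 -0.0072, and Eif4ebp1 in the S100 comparison was -0.045.

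With a Mif and Ranbp1 gate of 2 UMIs, initiation was 0.24, elongation against initiation -0.30 and 5 members were lower. With an S100 gate of 1 UMI elongation was -0.47, and with 3 UMIs -0.65 with 23 members lower. With 3 ribosomal groups in place of 5, elongation was 0.87, initiation 0.23, elongation against initiation 0.65 and 3 members were lower; with 2 groups, these were 0.64, 0.16, 0.48 and 2, with 6 higher.

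Without Eef1a1, elongation was 0.13 and elongation against initiation -0.27 in the Mif and Ranbp1 cells, and elongation was 1.17 over the quintiles. With Eif5a counted as elongation these were 0.013, -0.39 and 1.06. With all Eif symbols as initiation, initiation was 0.60 and elongation against initiation -0.74 in the Mif and Ranbp1 cells, and initiation was 0.26 over the quintiles. With at least 50 UMIs per member, 1 was higher in the S100 comparison and 3 were lower over the quintiles; with 10 UMIs, 8 were lower there. At 2-fold, 0 were lower in the Mif and Ranbp1 cells, 1 was higher and 5 lower in the S100 comparison, and 5 were higher and 1 lower over the quintiles.

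Of the settings added after the data were seen, others with at least 1500 UMIs gave -0.25 for elongation in the Mif and Ranbp1 comparison; at least 5 expected UMIs gave 14 members higher there and 1 in the S100 comparison; and within the lowest ribosomal quintile the S100 comparison gave -0.16 for elongation and 0.02 (0.0242) for elongation against initiation.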
